A study of Mus musculus with 16 samples.

Results

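The glucocorticoid receptor gene Nr3c1, the mineralocorticoid receptor gene Nr3c2 and 8 genes that control or answer the corticosteroid signal were followed across the 16 samples of the study. The 10 genes were taken by symbol from a table of 26625 genes: both receptors, the steroid enzyme Hsd11b1, the receptor co-chaperone Fkbp5, and the steroid-responsive genes Sgk1, Tsc22d3, Zbtb16, Klf9, Sult1a1 and Cdkn1a. Each symbol matched 1 entry, and all 10 passed the filter on low counts, which left 18826 genes. The rule that chose them uses symbols only, and the symbols were listed with earlier results of these data known.

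RNA from the medial prefrontal cortex (mPFC) of male C57BL/6 mice aged 8 to 10 weeks was sequenced as full-length cDNA on the Nanopore platform. In the Ctrl + Saline (n = 3) and Ctrl + Morphine (n = 4) groups a control hairpin virus (shNC) had been injected into the mPFC, and the labels give their genotype as WT. A virus with a hairpin against Kdm7a, a histone demethylase gene, was given to the Kdm7a-shRNA + Saline (n = 5) group and to the Kdm7a-shRNA + Morphine (n = 4) group, and the labels call these samples KDM7A knockdown. Place preference conditioning lasted 10 days, and in the morphine groups morphine at 10 mg/kg alternated with saline. Tissue was taken on day 17, day 7 of withdrawal, directly after a place preference test on that day. The hairpin was driven by the U6 promoter, which is active in most cell types, and how many cells of the dissected tissue the virus had entered was not measured here. The labels number the samples without saying that each was a separate animal, so the p-values measure the spread between these samples.

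Corticosterone, the main glucocorticoid of mice, crosses the cell membrane and binds receptors that heat shock proteins hold ready in the cytoplasm. The loaded receptor moves to the nucleus and turns genes on or off, often through a palindromic DNA element. The enzyme 11beta-hydroxysteroid dehydrogenase type 1 regenerates active steroid from its inert form inside cells, and FKBP51 lowers the receptor's affinity for the hormone. In the prefrontal cortex this system takes part in the feedback on the stress response.

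Among the 10 genes, the receptors did not pass the test in any comparison, while Hsd11b1 was lower with the knockdown under both treatments. Fkbp5 was lower with the knockdown under morphine, and Sult1a1 and Cdkn1a were higher with it under saline. The thresholds were an adjusted p of 0.05 in edgeR's quasi-likelihood test and a change of 1.5 times or more. Between Ctrl + Morphine and Kdm7a-shRNA + Morphine, 2 of the 10 passed, both lower, against 7.69% of all tested genes (2.86% higher and 4.83% lower). Between Ctrl + Saline and Kdm7a-shRNA + Saline, 3 of the 10 passed, 2 higher and 1 lower, against 16.7% of all tested genes (7.43% higher and 9.31% lower). For the virus effect averaged over the treatments, 2 of the 10 passed, 1 higher and 1 lower, against 17.6% (7.68% higher and 9.93% lower). On the adjusted p alone, 5 of the 10 passed for the averaged effect, against 27.6%. The median log2 fold change of the 10 genes was -0.04 under morphine and -0.06 under saline, beside -0.00 and 0.01 over all tested genes.

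**Figure D1:**
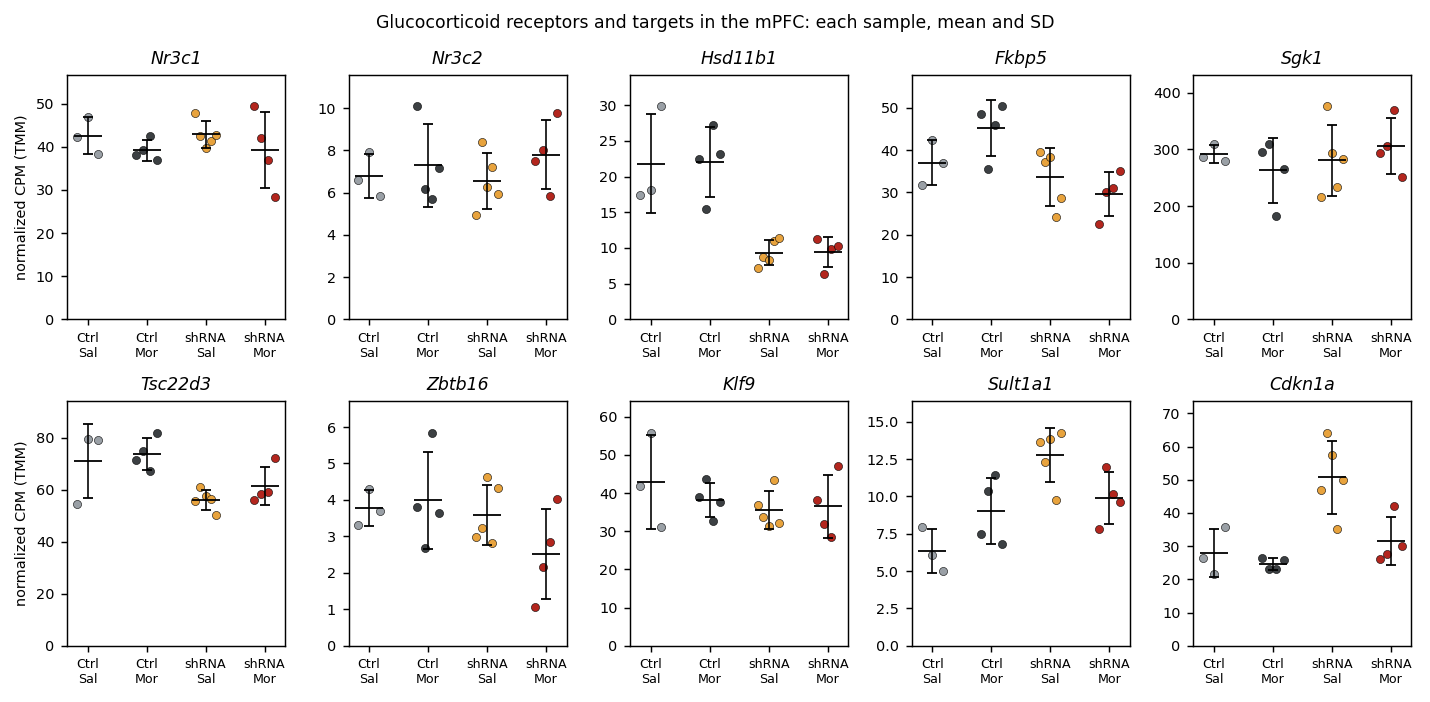
Normalized CPM of the 10 genes in each of the 16 samples by group. Points are samples, horizontal lines are group means and error bars are the SD. The Hsd11b1 points of the Kdm7a-shRNA groups, 6.35 to 11.4, lie below those of the Ctrl groups, 15.5 to 29.8.

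Kdm7a itself was measured first, since it checks the virus labels. In normalized CPM, the read count scaled to a common library total, it was 9.78, 9.08 and 9.40 in the Ctrl + Saline samples and 5.74, 4.95, 6.04, 6.07 and 4.92 in the Kdm7a-shRNA + Saline samples. It was 7.79, 6.19, 8.89 and 8.02 in the Ctrl + Morphine samples and 6.28, 4.44, 3.01 and 6.04 in the Kdm7a-shRNA + Morphine samples. Under saline every Kdm7a-shRNA sample was below every Ctrl sample, as in 12.7% of the tested genes, and the groups overlapped under morphine, where 1 Kdm7a-shRNA sample was above the lowest Ctrl sample. Kdm7a fell by 0.76 on the log2 scale under saline (SE 0.204, adjusted p = 0.0153), and its log2 difference under morphine was -0.67 (SE 0.206, adjusted p = 0.0506).

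Nr3c1 encodes the glucocorticoid receptor. Its level was 42.3, 46.9 and 38.4 CPM in the Ctrl + Saline samples and 38.1, 39.2, 42.6 and 36.9 CPM in the Ctrl + Morphine samples. It was 47.9, 42.5, 39.8, 41.3 and 42.7 CPM in the Kdm7a-shRNA + Saline samples and 49.3, 42.1, 37.0 and 28.3 CPM in the Kdm7a-shRNA + Morphine samples. The 4 groups overlapped, and the highest and the lowest of all 16 values both came from Kdm7a-shRNA + Morphine. The log2 difference between the viruses was 0.01 under saline (95% interval -0.29 to 0.31) and -0.00 under morphine (95% interval -0.30 to 0.29), so a change of more than about 0.31 in either direction lay outside the intervals. The log2 difference between morphine and saline was -0.12 (95% interval -0.44 to 0.20) in the Ctrl groups and -0.13 (95% interval -0.41 to 0.15) in the Kdm7a-shRNA groups.

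Nr3c2 encodes the mineralocorticoid receptor, which binds corticosterone with the higher affinity. Its level ran from 5.83 to 7.90 CPM in Ctrl + Saline, from 5.72 to 10.1 in Ctrl + Morphine, from 4.94 to 8.41 in Kdm7a-shRNA + Saline and from 5.84 to 9.80 in Kdm7a-shRNA + Morphine, with 43 to 101 reads per sample. These ranges overlapped in every comparison. The log2 difference between the viruses was -0.06 under saline (95% interval -0.53 to 0.42) and 0.08 under morphine (95% interval -0.37 to 0.54). These intervals are wider than those of Nr3c1.

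Hsd11b1 encodes the enzyme that regenerates corticosterone in the cell. Its level was 17.4, 18.2 and 29.8 CPM in the Ctrl + Saline samples and 22.5, 15.5, 27.1 and 23.1 CPM in the Ctrl + Morphine samples. It was 7.24, 8.76, 8.29, 11.02 and 11.4 CPM in the Kdm7a-shRNA + Saline samples and 11.2, 6.35, 9.88 and 10.3 CPM in the Kdm7a-shRNA + Morphine samples. All 9 Kdm7a-shRNA samples were below all 7 Ctrl samples, a separation in this direction that 2.5% of the tested genes showed.

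With the knockdown Hsd11b1 was at 0.430 of the Ctrl level under saline, a log2 fold change of -1.22 (SE 0.225, adjusted p = 0.00186). Under morphine the ratio was 0.428 and the log2 fold change -1.23 (SE 0.225, adjusted p = 0.00498). Averaged over the treatments the log2 fold change was -1.22 (95% interval -1.56 to -0.89, adjusted p = 4.45e-05). The interaction, which is the knockdown effect under morphine minus that under saline, was -0.01 (95% interval -0.68 to 0.66). The log2 difference between morphine and saline was 0.02 in the Ctrl groups and 0.01 in the Kdm7a-shRNA groups, and neither passed (adjusted p = 0.986 and 0.995). Both knockdown results passed in each of the 8 fits that left out 1 sample of the compared groups, with log2 fold changes from -1.39 to -0.95 under saline and from -1.36 to -1.08 under morphine.

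Hsd11b1 lies on chromosome 1 (193221634 to 193264075, minus strand, GRCm38). Its span overlaps Lamb3 and 4930570N18Rik on the other strand and Gm38118 on the same strand. The strand used for counting is not given in the sources used here, so reads of these genes cannot be told apart with certainty. Of the 3, only Lamb3 was examined here. Lamb3 had 1 to 28 reads per sample, beside 53 to 225 for Hsd11b1, and did not pass in any comparison. Hsd11b2, the gene of the enzyme that inactivates corticosterone, had 0 or 1 read per sample and was not tested.

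Fkbp5 encodes the co-chaperone FKBP51, which is itself induced by glucocorticoids. Its level was 31.7, 42.4 and 37.0 CPM in the Ctrl + Saline samples and 48.5, 35.5, 46.0 and 50.3 CPM in the Ctrl + Morphine samples. It was 39.6, 37.1, 38.4, 24.3 and 28.7 CPM in the Kdm7a-shRNA + Saline samples and 22.5, 30.1, 31.1 and 35.0 CPM in the Kdm7a-shRNA + Morphine samples. Under morphine every Kdm7a-shRNA sample was below every Ctrl sample, as in 7.51% of the tested genes, with the nearest pair at 35.0 and 35.5, while the groups overlapped under saline.

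Under morphine Fkbp5 fell by 0.60 on the log2 scale with the knockdown (SE 0.174, 95% interval -0.97 to -0.23, adjusted p = 0.0377), and under saline the log2 difference was -0.14 (SE 0.179, adjusted p = 0.616). The difference between these effects did not pass (interaction -0.46, adjusted p = 0.538), so the effect was not shown to depend on the treatment. Averaged over the treatments the log2 difference was -0.37 (adjusted p = 0.0335), short of the fold threshold. The result under morphine passed in 2 of the 8 fits with 1 sample left out, with adjusted p from 0.0194 to 0.116. It was lost without any of the Ctrl + Morphine samples 1, 3 and 4 (log2 differences of -0.57, -0.59 and -0.55) or of the Kdm7a-shRNA + Morphine samples 1, 2 and 3 (-0.49, -0.61 and -0.62). It was also lost with the compared groups fitted alone (-0.61, adjusted p = 0.0558) and with the replicate number as a block (-0.61, adjusted p = 0.0583). Fkbp5 spans 28399094 to 28517527 on the minus strand of chromosome 17. AC154912.3 and AC154912.5 overlap it on the same strand, and AC154912.1 and Gm22146 on the other, and they were not examined here.

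**Figure D2:**
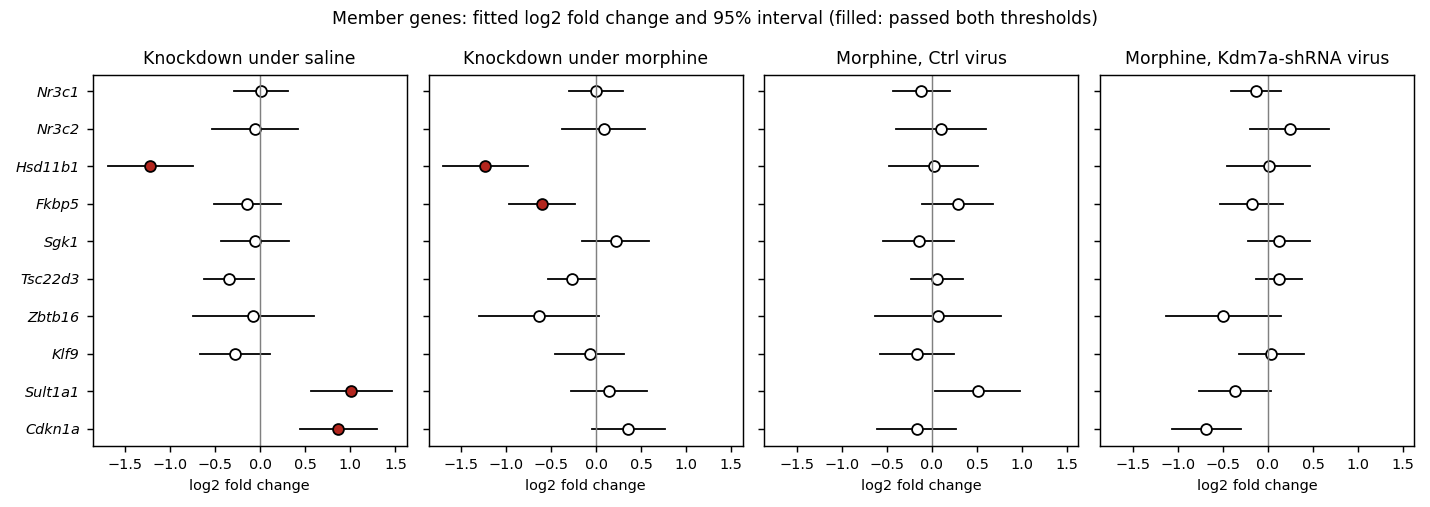
Fitted log2 fold change (horizontal axis) of each of the 10 genes in 4 comparisons, with 95% intervals as lines. Filled points passed both thresholds. Hsd11b1 was at -1.22 under saline and -1.23 under morphine, and no gene passed in either comparison of morphine with saline.

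Sult1a1 encodes a cytosolic sulfotransferase that adds sulfate to phenols and catecholamines, and glucocorticoids induce it in rodent liver. Its level was 7.93, 6.05 and 5.03 CPM in the Ctrl + Saline samples and 13.7, 12.3, 13.9, 9.79 and 14.3 CPM in the Kdm7a-shRNA + Saline samples. It was 7.49, 10.4, 11.4 and 6.85 CPM in the Ctrl + Morphine samples and 7.81, 11.99, 10.1 and 9.66 CPM in the Kdm7a-shRNA + Morphine samples. Under saline every Kdm7a-shRNA sample was above every Ctrl sample, as in 11.1% of the tested genes, and under morphine the groups overlapped.

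Sult1a1 was 2.02-fold higher with the knockdown under saline, a log2 fold change of 1.01 (SE 0.215, adjusted p = 0.00432), and this passed in all 8 fits with 1 sample left out. The log2 difference under morphine was 0.14 (95% interval -0.28 to 0.56, adjusted p = 0.709). The interaction was -0.87 (SE 0.292, unadjusted p = 0.00798) and did not pass after adjustment over all genes (adjusted p = 0.257), where 0.085% of the genes did. Between Ctrl + Saline and Ctrl + Morphine the log2 difference was 0.51, with an unadjusted p of 0.0357 and an adjusted p of 0.380. Averaged over the treatments the log2 difference was 0.58, just under the fold threshold (adjusted p = 0.00709). It passed both thresholds in 5 of the 16 fits that left out 1 sample, those without Ctrl + Saline 1, Ctrl + Morphine 2 or 3, Kdm7a-shRNA + Saline 4 or Kdm7a-shRNA + Morphine 1, at 0.61 to 0.66, and with the replicate block, at 0.59. The gene lies on chromosome 7 (126672865 to 126676432, minus strand), and Sgf29 overlaps it on the other strand. Sgf29 did not pass in any comparison, and its log2 difference with the knockdown was -0.06 under saline and 0.40 under morphine (adjusted p = 0.838 and 0.171).

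Cdkn1a encodes the cell cycle inhibitor p21, a target of p53 that glucocorticoids also induce. Its level was 26.4, 21.5 and 35.6 CPM in the Ctrl + Saline samples and 47.0, 64.2, 57.6, 35.1 and 49.8 CPM in the Kdm7a-shRNA + Saline samples. It was 26.5, 23.3, 23.0 and 25.9 CPM in the Ctrl + Morphine samples and 26.2, 27.7, 42.0 and 30.2 CPM in the Kdm7a-shRNA + Morphine samples. The 4 highest of the 16 values came from Kdm7a-shRNA + Saline, whose lowest sample was just under the highest Ctrl + Saline sample.

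Cdkn1a rose 1.83-fold with the knockdown under saline, a log2 fold change of 0.87 (SE 0.203, adjusted p = 0.00727), and passed in all 8 fits with 1 sample left out. Under morphine the log2 difference was 0.36 (95% interval -0.05 to 0.76, adjusted p = 0.256), and the interaction was -0.51 (adjusted p = 0.538). Within the Kdm7a-shRNA virus, morphine samples were lower than saline samples by a log2 difference of -0.68, which had an unadjusted p of 0.00156 and an adjusted p of 0.437. Averaged over the treatments, the knockdown effect was 0.61 (adjusted p = 0.00343). It fell below the fold threshold without Ctrl + Saline 1 or 2, Kdm7a-shRNA + Saline 2 or Kdm7a-shRNA + Morphine 3, at 0.58, 0.54, 0.56 and 0.53. Cdkn1a spans 29090976 to 29100727 on the plus strand of chromosome 17. AC167363.2 overlaps it on the other strand and was not examined here.

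Tsc22d3 encodes GILZ, a leucine zipper protein through which glucocorticoids dampen inflammation. Its level was 54.7, 79.4 and 79.3 CPM in Ctrl + Saline, 71.5, 74.9, 67.2 and 82.0 in Ctrl + Morphine, 55.7, 60.9, 57.5, 56.4 and 50.5 in Kdm7a-shRNA + Saline, and 56.1, 58.3, 59.0 and 72.2 in Kdm7a-shRNA + Morphine. Of the 7 Ctrl samples, 1 lay among the Kdm7a-shRNA samples, and each of the others was above at least 8 of the 9. The log2 difference was -0.34 under saline (adjusted p = 0.0729), -0.27 under morphine (adjusted p = 0.197) and -0.30 averaged over the treatments (SE 0.0915, adjusted p = 0.0191). The averaged difference passed the p-value threshold and not the fold threshold.

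Sgk1, Klf9 and Zbtb16 did not pass in any comparison. Sgk1, a kinase that regulates ion channels and transporters, ran from 279 to 309.7 CPM in Ctrl + Saline, from 182 to 309.6 in Ctrl + Morphine, from 216 to 376 in Kdm7a-shRNA + Saline and from 252 to 370.3 in Kdm7a-shRNA + Morphine. The log2 difference of Sgk1 between the viruses was -0.06 under saline (95% interval -0.43 to 0.32) and 0.22 under morphine (95% interval -0.15 to 0.58). Klf9, a transcription factor of the Krüppel-like family, differed by -0.28 under saline (95% interval -0.67 to 0.11) and by -0.07 under morphine (95% interval -0.45 to 0.31). Zbtb16 encodes the zinc finger repressor PLZF, and its counts were the lowest of the 10 genes, at 7 to 48 reads per sample. Zbtb16 was 3.79, 2.67, 5.84 and 3.64 CPM in Ctrl + Morphine and 1.07, 2.16, 2.84 and 4.03 CPM in Kdm7a-shRNA + Morphine, a log2 difference of -0.63 with a wide 95% interval from -1.30 to 0.03 (adjusted p = 0.219). The values of these groups overlapped.

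None of the 10 genes passed between Ctrl + Saline and Ctrl + Morphine, where 0% of all tested genes did, and 1 of the 10 and 2205 of the 18826 genes had an unadjusted p under 0.05. None passed between Kdm7a-shRNA + Saline and Kdm7a-shRNA + Morphine, where 0.00531% of all tested genes did, and 1 of the 10 and 1321 of all genes had an unadjusted p under 0.05. For morphine averaged over the viruses, 0 of the 10 and 0% of all genes passed, with 1 and 1574 at an unadjusted p under 0.05. For the interaction, 0 of the 10 passed, against 0.085% of all genes, with 1 of the 10 and 2022 of all genes at an unadjusted p under 0.05. The background counts of these comparisons moved with the test and with single samples. Between Ctrl + Saline and Ctrl + Morphine, 190 genes passed with DESeq2's Wald test, 230 passed in edgeR without Ctrl + Saline 1, 10 without Kdm7a-shRNA + Morphine 2, and 3 with a replicate block in these groups alone. For the interaction, 227 passed with DESeq2, 266 without Ctrl + Saline 1, 113 without Kdm7a-shRNA + Morphine 2 and 39 without Ctrl + Morphine 3, against 16, and 0 to 6 without any other sample. Between the Kdm7a-shRNA groups 0 to 5 passed with 1 sample left out and 26 with DESeq2, and for morphine averaged over the viruses 27 passed without Ctrl + Saline 1 and 5 with DESeq2. The count of the 10 genes that passed was 0 in every one of these fits.

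The promoters bear on this set because the receptors bind DNA. RefSeq promoter windows (GRCm38.p6), from 250 bases before to 50 after a transcript start, were found for 8 of the 10 genes, 16 windows in all. They were searched on both strands for the single site AGAACA, which reads TGTTCT on the other strand, and for the whole palindromic element, in which both of these face each other across 3 bases. The single site was in 5 of the 16 windows, beside 19% of all 32851 windows. Most of the 5 belong to Sgk1, which has 6 of the 16 windows. By gene, 3 of the 8 (Sgk1, Tsc22d3 and Sult1a1) had the site in any window, beside 21.3% of 27025 genes. The whole element was in 3 of the 32851 windows, and 1 of those belongs to Sgk1. Of the windows shown, those of Sgk1, Tsc22d3 and Sult1a1 hold the motif, and that of Hsd11b1, the member that passed under both treatments, holds none. Capitals mark the single sites and the whole element. Sgk1 has 6 windows and Tsc22d3 has 3, of which 1 each is shown.
Sgk1, chr10:21993640-21993939, plus strand: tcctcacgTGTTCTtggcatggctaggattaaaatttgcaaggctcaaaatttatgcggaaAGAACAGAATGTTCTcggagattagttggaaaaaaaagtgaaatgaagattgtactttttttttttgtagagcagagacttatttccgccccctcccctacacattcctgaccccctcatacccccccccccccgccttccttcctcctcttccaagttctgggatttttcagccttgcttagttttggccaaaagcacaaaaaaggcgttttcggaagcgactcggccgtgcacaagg
Tsc22d3, chrX:140600473-140600772, minus strand: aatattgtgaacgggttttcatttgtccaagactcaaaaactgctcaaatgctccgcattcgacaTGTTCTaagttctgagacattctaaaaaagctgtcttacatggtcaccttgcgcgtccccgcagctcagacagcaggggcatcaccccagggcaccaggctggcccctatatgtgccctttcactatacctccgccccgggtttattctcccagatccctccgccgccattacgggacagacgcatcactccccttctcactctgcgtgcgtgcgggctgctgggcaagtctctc
Sult1a1, chr7:126676369-126676668, minus strand: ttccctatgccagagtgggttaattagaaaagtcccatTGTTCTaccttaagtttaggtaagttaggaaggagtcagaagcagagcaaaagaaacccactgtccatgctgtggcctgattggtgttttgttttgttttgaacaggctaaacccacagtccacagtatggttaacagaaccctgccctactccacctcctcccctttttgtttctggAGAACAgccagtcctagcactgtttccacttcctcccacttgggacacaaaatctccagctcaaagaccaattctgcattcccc
Hsd11b1, chr1:193242311-193242610, minus strand: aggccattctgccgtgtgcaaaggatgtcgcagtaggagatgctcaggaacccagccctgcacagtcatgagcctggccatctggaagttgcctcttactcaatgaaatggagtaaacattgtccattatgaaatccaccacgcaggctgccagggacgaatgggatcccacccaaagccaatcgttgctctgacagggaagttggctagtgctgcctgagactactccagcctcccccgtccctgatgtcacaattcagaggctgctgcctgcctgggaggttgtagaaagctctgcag
The Sgk1 element begins 189 bases before the start of that transcript. A match of letters is a description of the sequence. Sgk1, with the whole element, did not pass in any comparison. Among the members with a single site, Sult1a1 passed under saline, and Hsd11b1, Fkbp5 and Cdkn1a passed in at least 1 comparison with no such site in these windows.

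Genes around the receptors were described by 7 lists. Their counts stand beside the shares of all tested genes that passed, 7.43% higher and 9.31% lower under saline and 2.86% higher and 4.83% lower under morphine, and a list of 12 with 2 genes past the thresholds under saline is at the total share of 16.7%. Of 12 receptor chaperones, 0 passed under morphine, and 2 rose with the knockdown under saline. These were Ptges3, the p23 co-chaperone, with a log2 fold change of 1.09 (SE 0.235, adjusted p = 0.00471), and Bag1, a cofactor of HSP70, with 0.76 (SE 0.190, adjusted p = 0.0107). Ptges3 ran from 18.7 to 32.4 CPM in Ctrl + Saline and from 46.7 to 63.5 in Kdm7a-shRNA + Saline, with no overlap, as in 11.1% of the tested genes. Under morphine it overlapped, at 33.7 to 52.6 CPM in Ctrl + Morphine and 30.6 to 65.3 in Kdm7a-shRNA + Morphine, with means of 43.0 and 43.3. Hsp90aa1, the inducible HSP90 gene, had log2 differences of 0.02 under saline and 0.12 under morphine (adjusted p = 0.926 and 0.637). Of 12 nuclear receptor coregulators, 0 passed under morphine, and 2 fell under saline: Med1 of the Mediator complex by 0.62 on the log2 scale (adjusted p = 0.0143) and Ppargc1a, the coactivator PGC-1alpha, by 0.80 (adjusted p = 0.0295). Under morphine the means of Med1 were 12.7 CPM with the control virus and 12.6 with the knockdown. Those of Ppargc1a were 3.85 and 5.22, in the other direction.

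Of 26 other genes that glucocorticoids induce, 2 rose and 0 fell with the knockdown under morphine, and 3 rose and 0 fell under saline. The median log2 fold change of the list was 0.06 under morphine and 0.21 under saline. Lcn2, a siderophore-binding protein gene, passed in both, with log2 fold changes of 3.24 under morphine (SE 0.885, adjusted p = 0.0290) and 3.04 under saline (SE 0.964, adjusted p = 0.0335). Its counts were low, at 1 to 17 reads in the Ctrl samples and 10 to 232 in the Kdm7a-shRNA samples, and the groups overlapped in CPM. Plin4, a lipid droplet protein gene, rose under saline from a mean of 3.38 to 16.2 CPM (log2 fold change 2.27, adjusted p = 0.00294). Nfkbia, the NF-kappaB inhibitor gene, rose under morphine (log2 fold change 0.65, adjusted p = 0.0485). Per1, a clock gene with an early glucocorticoid response, did not pass under saline or morphine (log2 differences of 0.32 and -0.08). Averaged over the treatments, 3 of the 26 rose and 2 fell. Those that rose were Lcn2 (log2 fold change 3.14), Plin4 (1.30) and Cebpd (1.46), a transcription factor gene that also rose under saline (2.02, adjusted p = 0.0330) and is named after its values were seen. The metallothionein gene Mt1 fell by 0.75 on the log2 scale (adjusted p = 0.0110), and Mt2, named after its values were seen, fell by 0.76 (adjusted p = 0.0227).

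**Figure D3:**
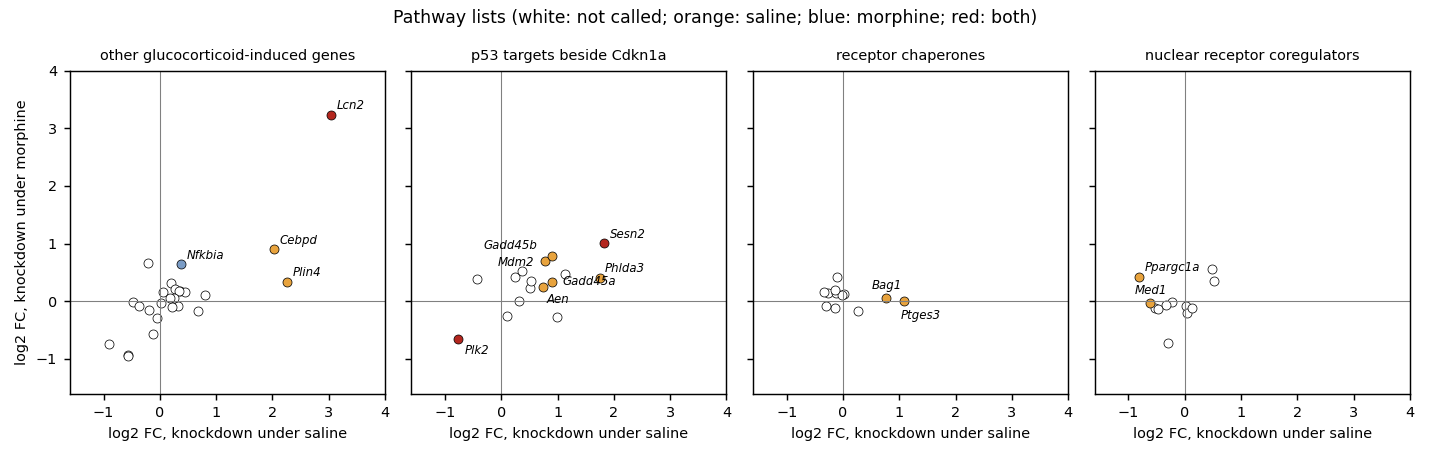
Log2 fold change with the knockdown under saline (horizontal) and under morphine (vertical) for 4 of the lists, 1 point per gene. Colours mark the treatment in which a gene passed. Lcn2, Sesn2 and Plk2 passed under both.

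Of the 17 genes in the p53 list beside Cdkn1a, which are p53 targets and Trp53, the gene of p53 itself, 16 were tested. Under saline 6 rose and 1 fell with the knockdown, with a list median of 0.63 in log2 fold change beside 0.01 over all genes. Under morphine 1 rose and 1 fell, with a list median of 0.37. Sesn2, a stress-induced regulator of growth signalling, rose under both treatments, with log2 fold changes of 1.83 under saline (SE 0.341, adjusted p = 0.00201) and 1.01 under morphine (SE 0.300, adjusted p = 0.0428). Mdm2, which encodes the main negative regulator of p53, rose under saline by a log2 fold change of 0.77 (adjusted p = 0.0402) and differed by 0.71 under morphine (adjusted p = 0.0691). Phlda3, which encodes an inhibitor of AKT signalling, and Gadd45b, a stress-response gene, rose under saline, with log2 fold changes of 1.74 and 0.89 (adjusted p = 0.00443 and 0.0255). The others that rose under saline were Aen and Gadd45a, named after their values were seen. Plk2, a kinase gene induced by neuronal activity, fell by 0.78 under saline and by 0.66 under morphine on the log2 scale (adjusted p = 0.00285 and 0.0140).

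Of the 11 genes of corticosteroid supply and the CRH system, 7 were tested. Crhbp, which encodes the CRH-binding protein, fell by 0.92 on the log2 scale under saline (SE 0.202, adjusted p = 0.00500) and did not pass under morphine (log2 difference -0.33, adjusted p = 0.318). Crh was too low for a firm statement, at 4 to 24 reads per sample. Of the 11 listed sulfotransferase and sulfate donor genes, 4 were tested and 0 passed, and Sult1a2 had no entry under that symbol. Of 14 other Krüppel-like factors, 12 were tested, 0 passed under morphine, and Klf7 and Klf6 fell under saline by 0.76 and 0.62 on the log2 scale (adjusted p = 0.00451 and 0.0451). Under morphine the means of Klf7 were 11.7 CPM with the control virus and 11.5 with the knockdown. Those of Klf6 were 45.8 and 52.1. Klf2 did not pass (log2 difference of 0.78 under saline, adjusted p = 0.294).

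Cell type markers moved with the virus as well, and in bulk tissue fewer cells of a type and less RNA per cell cannot be told apart. The marker counts stand beside the shares of all tested genes that passed, 7.43% higher and 9.31% lower under saline and 2.86% and 4.83% under morphine. For the averaged virus effect the shares were 7.68% and 9.93%, and with lists this short single genes weigh heavily. Of 6 microglia markers, 5 were higher with the knockdown under saline and 3 under morphine, and 0 were lower. Their summed level was 561 to 671 CPM in Ctrl + Saline, 311 to 601 in Ctrl + Morphine, 803 to 2306 in Kdm7a-shRNA + Saline and 556 to 2183 in Kdm7a-shRNA + Morphine. The medians of these sums were 634, 538, 1701 and 921 CPM. Of 6 inhibitory neuron markers, 3 were lower and 2 higher under saline, and 1 was lower and 1 higher under morphine, with summed levels of 488 to 549, 517 to 543, 329 to 439 and 361 to 481 CPM in the same order of groups. These sums mix opposite changes: under saline the mean of Sst went from 239 to 108 CPM and that of Pvalb from 56.5 to 90.8. Of 5 endothelial markers, 3 were higher under saline and 1 under morphine (156 to 189.8, 160 to 196, 204 to 306 and 182 to 336 CPM). Of 7 astrocyte markers, 2 were higher under saline and 0 passed under morphine (9228 to 11680, 7449 to 9125, 8669 to 10324 and 8346 to 10248 CPM). Aldoc made up most of the astrocyte sums, with group means of 9569, 7208, 8217 and 7919 CPM, so they say little of the other markers. Averaged over the treatments, 3 of the 7 astrocyte markers were higher with the knockdown.

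All 4 red blood cell markers were lower under saline with the knockdown and 0 passed under morphine, with summed levels of 733 to 1562 CPM in Ctrl + Saline, 377 to 679.7 in Ctrl + Morphine, 379 to 573 in Kdm7a-shRNA + Saline and 321 to 1168 in Kdm7a-shRNA + Morphine. Of 4 pericyte and fibroblast markers, 1 was higher under saline. None of the 7 oligodendrocyte, 6 excitatory neuron and 4 striatal markers passed under either treatment. Averaged over the treatments, 1 oligodendrocyte marker was higher with the knockdown, and no excitatory neuron or striatal marker passed. In the same order of groups, oligodendrocyte markers summed to 7564 to 13097, 7126 to 13270, 8512 to 18573 and 8980 to 20015 CPM. Their medians were 10718, 9463, 17654 and 14890 CPM. Mbp made up most of the oligodendrocyte sums, with group means of 8063, 7863, 11620 and 12258 CPM. Striatal markers summed to 47.7 to 69.1, 90.6 to 123, 48.2 to 130 and 58.9 to 84.7 CPM, without overlap of the Ctrl groups. Ppp1r1b made up most of the striatal sums, with group means of 51.3, 103, 73.2 and 67.9 CPM. The excitatory neuron markers of the cortex were present in every group, with summed levels of 899 to 1863 CPM over all samples, and their median log2 difference with the knockdown was -0.30 under saline and -0.34 under morphine. Choroid plexus markers summed to at most 7.70 CPM. No marker was at 0 in every sample of a group. The part of these cell types in the results on Hsd11b1, Fkbp5, Sult1a1, Cdkn1a and the lists was not tested.

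Within groups the 10 genes did not vary as 1 block. After each group's mean of log2 CPM was subtracted, Pearson's r over the 16 samples was highest between Fkbp5 and Zbtb16 (0.61), Nr3c2 and Klf9 (0.51), and Fkbp5 and Tsc22d3 (0.51). It was lowest between Klf9 and Cdkn1a (-0.70), Nr3c1 and Zbtb16 (-0.61), and Hsd11b1 and Sult1a1 (-0.52). These values are descriptions over samples that share depth and tissue composition, and Zbtb16 rests on few reads.

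**Figure D4:**
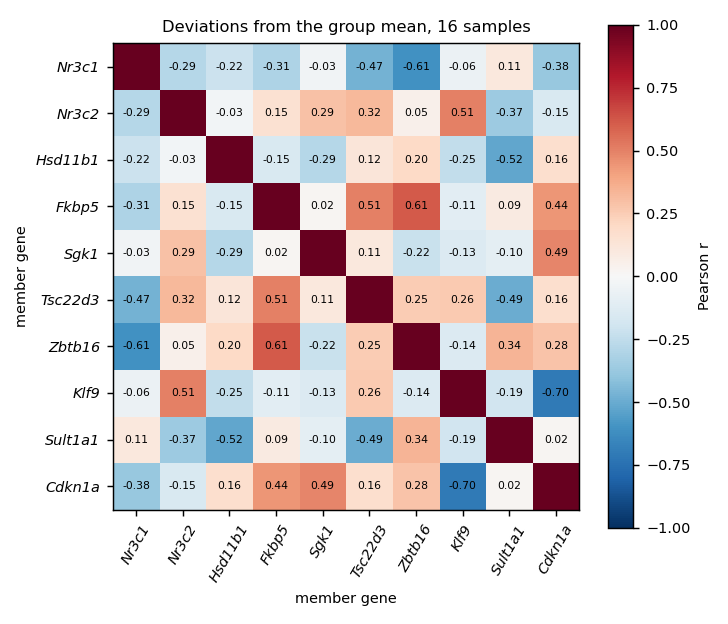
Pearson's r (colour and number) between the 10 genes over the 16 samples, on log2 CPM after each group's mean was subtracted. The strongest colours off the diagonal are Klf9 with Cdkn1a at -0.70 and Fkbp5 with Zbtb16 and Nr3c1 with Zbtb16 at 0.61 and -0.61.

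Measured in the same way against 14443 tested genes with a symbol, the patterns most like Nr3c1 were those of Zfp707 (r = 0.88), Bcdin3d (0.85) and Ap4e1 (0.84). Those most like Nr3c2 were Brwd3 (0.90), Ppargc1a (0.80) and Apaf1 (0.79). For Fkbp5 they were Upf1 (0.88), Dcaf13 (0.88) and Slc30a5 (0.87), and for Tsc22d3 Maip1 (0.86), Arhgap35 (0.85) and Zfp518b (0.84). Each is the top of many genes compared over 16 samples, and Bcdin3d, Ap4e1, Brwd3 and Zfp518b had samples with 2 to 8 reads.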

How the data were processed

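The deposited counts are the reads that the authors assigned to each gene, without normalization, and the deposited CPM values are those counts scaled to each sample's total, matched by recalculation to within 4.99e-06. Per the labels and the study's methods, the authors kept reads of a quality above 7 and a length above 500 bp, aligned full-length reads to mm10 with minimap2 and named edgeR 3.8.6. Of the 26625 entries, 7066 and a further 144 lncRNA entries are loci the authors assembled.

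Counts were tested here in R 4.3.3 with edgeR 4.0.16 (filterByExpr on the 4 groups, TMM factors, glmQLFit and glmQLFTest, 1 coefficient per group, all 16 samples), with Benjamini-Hochberg adjustment over 18826 genes. Normalized CPM uses the TMM-scaled total. The factors differed by virus, at 1.02 to 1.07 for Ctrl samples and 0.913 to 0.991 for Kdm7a-shRNA samples. SE is the absolute log2 fold change over the square root of F. Depth was 6596991 to 12418112 reads per sample, r of log2 CPM within groups was 0.951 to 0.981. Counts of samples of a group differed by a chi-square of 8.33 to 51.2 per degree of freedom, more than counting error. Same-numbered samples of Ctrl + Saline and Ctrl + Morphine correlated weakly (r of deviations from the group means 0.146, 0.207 and 0.110). The labels state no pairing, and these values do not establish one. Between all groups the median r was 0.01 for same-numbered samples and -0.01 for differently numbered ones. A block within Ctrl + Saline and Ctrl + Morphine alone was added after the data were seen. The alternatives were RLE factors, library size only, no filter, at least 10 counts in every sample, DESeq2 1.42.0, the replicate number as a block, known genes only, adjusted p alone, the compared groups alone, and each sample left out.

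The 10 genes, the lists and the markers were chosen with earlier results of these data known. From each list the text names its first gene and up to 4 that passed in at least 1 comparison, by the smallest p of the averaged virus effect, plus the 3 genes most correlated with each of Nr3c1, Nr3c2, Fkbp5 and Tsc22d3. On simulated counts with 200 of 18826 genes changed between Ctrl + Morphine and Kdm7a-shRNA + Morphine, 48% were recovered at a true log2 change of 1 and 91% at 2, with 6 unchanged genes passing. Positions are from GENCODE on GRCm38, with sequences from RefSeq. Transcript-level values were not used here.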

Additional observations from a re-analysis of the deposited data

How the results depend on the processing

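Hsd11b1 passed under both treatments, and Sult1a1 and Cdkn1a passed under saline, under every alternative run. Of the 10 genes, 2 passed between Ctrl + Morphine and Kdm7a-shRNA + Morphine, and 1 passed with the compared groups alone (Fkbp5 at -0.61, adjusted p = 0.0558) and 1 with the replicate block (Fkbp5 at -0.61, adjusted p = 0.0583). With 1 sample left out the count was 1 to 2. For the virus effect averaged over the treatments, 2 passed, and 1 passed with library size only, with at least 10 counts in every sample and with known genes only, where Cdkn1a was at 0.49, 0.58 and 0.55, below the fold threshold. With 1 sample left out it was 1 to 3, with Sult1a1 gained in 5 of the 16 fits and Cdkn1a lost in 4, and with the adjusted p alone it was 5, Fkbp5, Tsc22d3 and Sult1a1 being added. With the replicate block it was 3, Sult1a1 being added at 0.59, and the block changed no other count of members. Outside Ctrl + Saline and Ctrl + Morphine, no comparison had every same-numbered pair correlated above 0.1, so no block was fitted in other groups alone. The Kdm7a-shRNA samples numbered 3 and 4 nevertheless correlated more highly between treatments, at 0.395 and 0.358. Over all 21 same-numbered pairs r ran from -0.10 to 0.39.

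Over all genes, 1448 passed under morphine, against 697 with at least 10 counts in every sample, 446 with known genes only and 685 with the compared groups alone. With 1 sample left out the count under morphine was 568 to 2066, and it moved by over 1.5 times without Ctrl + Morphine 1, 3 or 4 (933, 750 and 578) or Kdm7a-shRNA + Morphine 1 or 3 (913 and 568). Under saline 3151 passed, against 1852 with at least 10 counts in every sample and 1419 with known genes only, and 2083 and 1424 passed without Ctrl + Saline 2 and 3. For the averaged virus effect 3316 passed, against 1525 and 1456 with the same filters. Library size only moved the median log2 difference of all genes to -0.11 under morphine and -0.12 under saline. With it Hsd11b1 was at -1.34 and -1.35, Fkbp5 at -0.71 under morphine, and Sult1a1 and Cdkn1a at 0.88 and 0.73 under saline. Of the member values with an unadjusted p of 0.05 or more, 55 in all, 120 of 1354 under the alternatives changed sign and 0 passed. The cause of these changes was not tested. Zbtb16 rested on 7 to 48 reads per sample and Crh on 4 to 24.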
